A study of Mus musculus with 2 samples.

Results

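The genes described here encode the enzymes that break glucose down to pyruvate and lactate, those of the pentose phosphate pathway and the tricarboxylic acid (TCA) cycle, and a few of their transporters and regulators. They were chosen by gene symbol from a fixed list of 39 names, with no threshold on a measured value, although the list was drawn up when earlier results of these data were known. The list matched 40 of the 55536 annotated genes, because Aldoa names 2 genes. The second Aldoa gene held 0 and 3 estimated counts and was left out, so 39 genes were analysed. RNA was taken from the nucleoplasm of bone marrow-derived macrophages of mouse strain C57BL/6J (the fraction is called nuclear or nucleus elsewhere in the labels). The cells had received 100 ng/ml lipid A, the TLR4-binding part of bacterial lipopolysaccharide, for 25 min. Ribosomal RNA was depleted and total RNA sequenced in 2 libraries, replicates 1 and 2, which form a single group. They carry different biological replicate numbers and the same donor entry, so the spread between them may be partly technical. No untreated cells, other time or cytoplasmic fraction was analysed here, and no genetic change is labelled. All values are therefore levels after lipid A, with no test between conditions.

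Replicate 1 was made from 500 ng of RNA and replicate 2 from 1 µg, so input and replicate cannot be told apart. The gene table held 13506939 and 17932332 estimated counts, of which 0.201% and 0.183% fell on the 39 genes. A gene with 0 counts could hold up to 3 counts, or 0.222 and 0.167 CPM (counts scaled to a total of 1000000). All 8 macrophage markers were detected, with summed levels of 3560 and 3007 TPM (transcripts scaled for length to the same total). Of the 31 markers of neutrophils, B, T and NK cells, erythroid cells and megakaryocytes, fibroblasts, mast cells and dendritic cells, 4 were detected, among them Cd4 at 29.5 and 23.8 TPM, while the T cell gene Cd3e was at 0. Their summed levels were highest for erythroid cells and megakaryocytes, at 72.3 and 50.1 TPM, and lowest for mast cells, at 0.12 and 0.20. The part of other cells in the values below was not tested.

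Glycolysis splits glucose into a pair of triose phosphates and oxidises these to pyruvate. Lactate dehydrogenase then reduces pyruvate to lactate, or the pyruvate dehydrogenase complex feeds it into the TCA cycle of the mitochondria. The pentose phosphate pathway branches off at glucose 6-phosphate and supplies NADPH and ribose. Macrophages activated through TLR4 are known to raise glycolysis over the following hours, with the transcription factor subunit HIF-1 alpha, encoded by Hif1a, among its regulators. The RNA measured here is nuclear, so it holds transcripts still being made, spliced or retained, and its levels are not those of the cytoplasmic mRNA pool.

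Nearly all of these genes were expressed. At a minimum of 1 TPM in both libraries 38 of 39 were detected, where 44.5% of all protein-coding genes were. At a minimum of 5 TPM the count was 31, against 28.6% of all protein-coding genes. The exception was Ldhb, a lactate dehydrogenase subunit, with 0.870 TPM in replicate 1 and 0.510 in replicate 2 on 10 and 11 counts. On the log2(TPM + 1) scale the median level of the 39 genes was 4.04 ± 0.18 (SD, n = 2, as for all errors below), against 3.40 ± 0.33 over all detected protein-coding genes. Within a library the members' median exceeded that of the detected genes by 0.65 ± 0.15. In a bulk fraction, fewer expressing cells and less RNA per cell cannot be told apart.

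**Figure D1:**
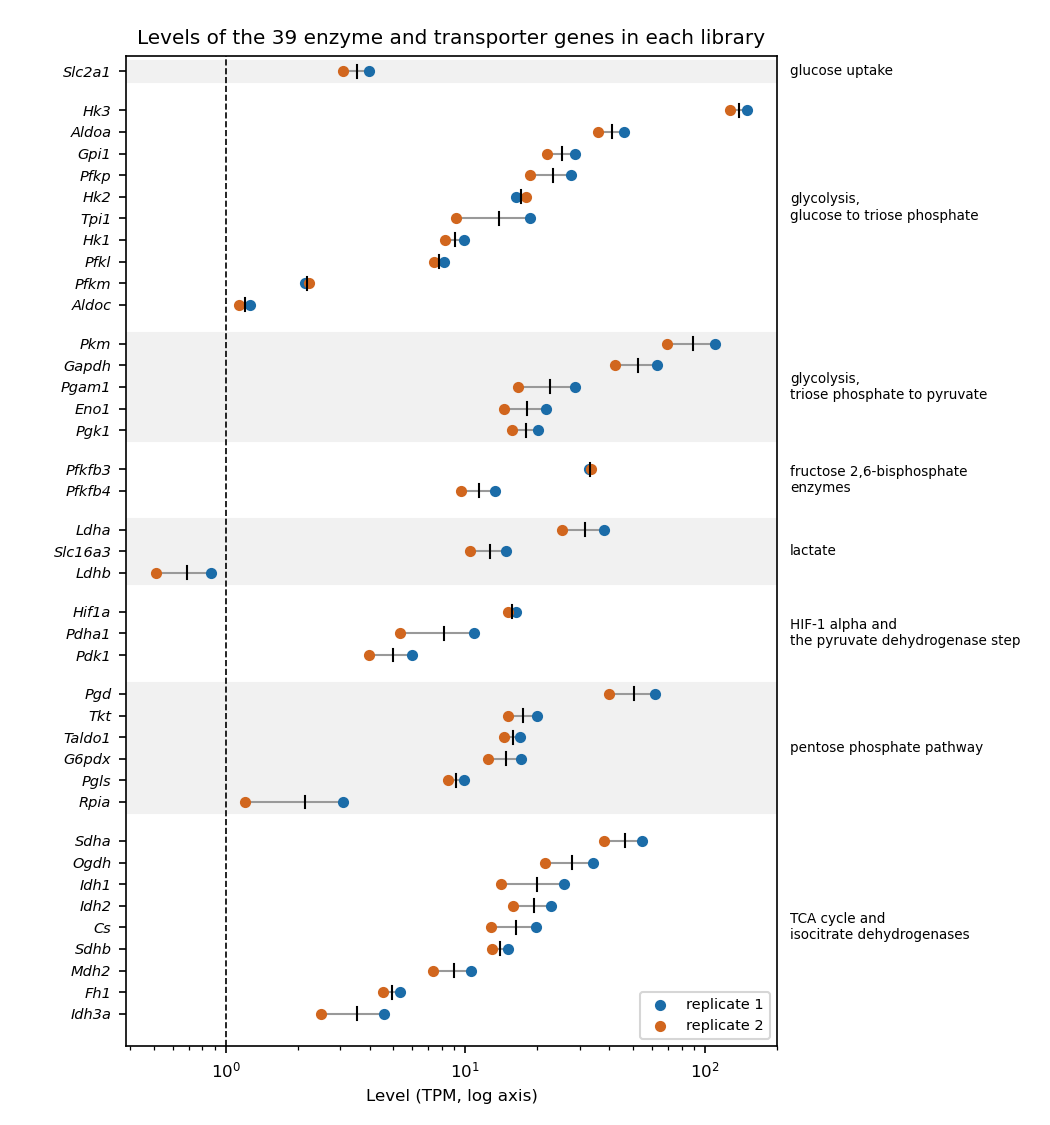
Level of each of the 39 genes in TPM on a log axis, by pathway; points are the 2 libraries, the short vertical line is their mean and the dashed line marks 1 TPM. Hk3 and Pkm lead, only Ldhb lies below the dashed line in both libraries, and most replicate 1 points lie to the right of those of replicate 2.

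The highest gene was Hk3 at 139 ± 16.5 TPM, followed by Pkm at 89.5 ± 28.7 and Gapdh at 52.6 ± 15.0. These 3 did not overlap in order: the lower Hk3 value was above both Pkm values, and the lower Pkm value above both Gapdh values. Next came Pgd, Sdha and Aldoa, which overlapped with each other and with Gapdh, and Aldoa lay above both values of Pfkfb3. From Pfkfb3 at 33.3 TPM down to Pfkl at 7.80 TPM the range of each gene overlapped that of the next in the order. At the low end Pfkl was separated from Pdk1, Slc2a1 from Pfkm, and Aldoc from Ldhb. All 39 genes had lower TPM in replicate 2 except Hk2, Pfkfb3 and Pfkm, and the median over all countable genes was lower in replicate 2 as well (below).

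Glucose enters the cell through transporters such as Slc2a1 (GLUT1), measured here at 3.96 TPM in replicate 1 and at 3.09 in replicate 2. Hexokinases phosphorylate it to glucose 6-phosphate. Hk3 (ENSMUSG00000025877, chromosome 13, 55005985 to 55021385, minus strand, mm10) had 151 and 127 TPM on 4467 and 6039 counts. Its mean lay at percentile 98.8 of all protein-coding genes. Hk2, the inducible hexokinase of many tissues, had 16.3 and 18.0 TPM, and Hk1, the widely expressed form, 9.87 and 8.27. Hk3 thus held 84.1% ± 1.63 of the hexokinase TPM, Hk2 10.5% ± 1.77 and Hk1 5.49% ± 0.14. The libraries agreed on this order, and Hk3 held 76.7% ± 0.93 when shares were taken from counts, which are not divided by length.

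The transcript with the most TPM in Hk3 was not annotated as coding for the full enzyme. Hk3-204, annotated as a target of nonsense-mediated decay (NMD), had 44.6 ± 7.29 TPM, and the coding transcript Hk3-208 had 43.8 ± 1.37. They overlapped between the libraries: Hk3-204 was higher in replicate 1 and lower in replicate 2. NMD transcripts held 43.4% ± 0.15 of the Hk3 counts in the aligned transcript table and 29.0% ± 2.77 in the alignment-free table. Of the Hk3 TPM, coding transcripts held 39.2% ± 1.19, against 81.0% ± 1.59 in Pkm, and NMD transcripts 32.0% ± 1.45. Processed transcripts held 28.8% ± 2.64 of the Hk3 TPM on 5.78% ± 1.10 of its counts. Hk3-204 has 19 exons and Hk3-208 has 18, and 15 of them are identical. Hk3-204 has an additional exon of 120 bases (chromosome 13, 55019328 to 55019447). It also uses only 64 bases of a coding exon that is 120 bases long in Hk3-208. That exon (chr13:55014427-55014546, minus strand, mm10) is shown because it is where these transcripts diverge within the reading frame. Capitals mark the 56 bases that Hk3-204 lacks, a length that is not a multiple of 3.

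Hk3-208 exon 4: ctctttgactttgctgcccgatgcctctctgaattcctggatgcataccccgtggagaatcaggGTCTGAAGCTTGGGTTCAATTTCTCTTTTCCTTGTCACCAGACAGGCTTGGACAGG

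Glucose 6-phosphate is isomerised by the product of Gpi1, which had 28.7 TPM in replicate 1 and 21.9 in replicate 2. Phosphofructokinase then commits the sugar to glycolysis. Its platelet-type subunit gene Pfkp (chromosome 13, 6579768 to 6648777, mm10) had 27.8 and 18.6 TPM, the liver-type Pfkl 8.18 and 7.42, and the muscle-type Pfkm 2.15 and 2.23. Pfkp held 69.3% ± 4.99 of the family's TPM, Pfkl 23.9% ± 3.40 and Pfkm 6.77% ± 1.59. Most Pfkp reads were not assigned to a coding transcript. The retained-intron transcript Pfkp-212 held 904 and 1082 counts, 69.1% ± 1.16 of the gene. It is 8681 bases long with 16 exons, and its longest exon, of 7108 bases, lies outside the exons of the leading coding transcript. All retained-intron transcripts together held 83.0% ± 2.08 of the Pfkp counts. Coding transcripts held 17.0% ± 2.08 of the Pfkp counts and 80.4% ± 0.16 of the Pfkl counts in the aligned transcript table. In coding counts of that table Pfkl was higher than Pfkp in each library. The alignment-free table gave the reverse order by a small margin. There coding transcripts held 21.7% of 2059 and 23.6% of 1946 Pfkp counts. For Pfkl they held 76.9% of 566 and 74.3% of 572. The lead of Pfkp is thus that of all its transcripts, and the order by summed coding TPM was not tested.

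Aldolase cleaves fructose 1,6-bisphosphate, and Tpi1 encodes the isomerase of its products. Aldoa had 46.2 and 35.8 TPM and Aldoc 1.26 and 1.14, so Aldoa held 97.1% ± 0.30 of their sum. Tpi1 had 18.6 TPM in replicate 1 and 9.14 in replicate 2.

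**Figure D2:**
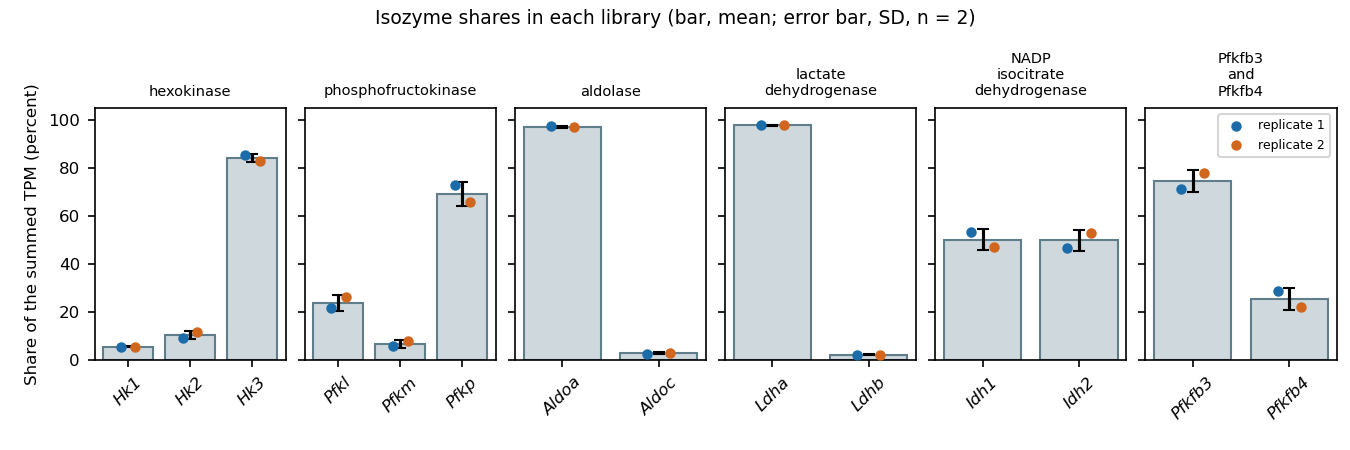
Percent of the summed TPM of the member genes of each isozyme family held by each gene; bars are means with SD (n = 2) and points are the libraries. Hk3, Aldoa and Ldha hold over 80% of their families in both libraries, and Idh1 and Idh2 change places between them.

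The bifunctional PFKFB enzymes set the level of fructose 2,6-bisphosphate, the strongest activator of phosphofructokinase. Pfkfb3, whose product favours its synthesis, had 32.9 TPM in replicate 1 and 33.6 in replicate 2, and Pfkfb4 had 13.3 and 9.60. Pfkfb3 held 74.5% ± 4.67 of the pair. The genes of the other PFKFB enzymes, which are no members, had 15.3 and 8.78 TPM (Pfkfb2) and 3.09 and 2.45 (Pfkfb1), and of all 4 Pfkfb3 held 56.3% ± 7.63. Its leading transcript Pfkfb3-206 held 49.0% of its counts in replicate 1 and 28.2% in replicate 2.

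The 5 genes of the steps from triose phosphate to pyruvate had a median log2(TPM + 1) of 4.89 in replicate 1 and 4.14 in replicate 2, against 4.20 and 3.79 for the 10 genes of the upper steps. The difference within a library was 0.69 in replicate 1 and 0.35 in replicate 2. Gapdh (chromosome 6, 125161715 to 125166467, mm10), the dehydrogenase that yields NADH, had 63.2 and 42.1 TPM. Pgk1, the first ATP-yielding kinase, had 20.2 and 15.7. Pgam1, a mutase, had 28.7 and 16.6. Eno1, enolase, had 21.7 and 14.5 TPM.

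Gapdh had the most near-identical copies of all members. Its leading coding transcript matched 177 other genes at 90% identity or more over at least 50% of its length, 169 of them annotated pseudogenes. Those pseudogenes held 935 and 908 counts over their whole genes, against 824 and 934 for Gapdh itself, or 53.2% and 49.3% of the sum. The transcribed pseudogene Gm11960, at 95.1% identity, alone held 275 and 346 of the pseudogene counts. Of the genes that match but are no pseudogenes, the protein-coding gene Peli2, alike over 836 bases, had 430 and 541 counts over the whole gene, which are not counts on the alike stretch alone. Of the pseudogenes, 19 had more than 3 counts in both libraries. Pgk1 had 2 pseudogene copies with 101 counts in replicate 1 and 19.3 in replicate 2, 18.7% and 3.24% of the sum. The posterior SD, the quantifier's own uncertainty of the count, was 3.26% and 2.27% of the count for Pgk1 and 1.42% and 1.35% for Gapdh. For Aldoa, Eno1, Pkm, Ldha, Taldo1, G6pdx and Cs, copies held less than 7% in each library. Ldhb had 1 copy, with 4 and 3 counts beside its own 10 and 11. The 29 other members had no such copy.

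Pyruvate kinase makes pyruvate. Pkm (chromosome 9, 59656368 to 59679375, plus strand, mm10) had 109.8 and 69.2 TPM on 2959 and 3236 counts. Its product is the M1 or the M2 isoenzyme, depending on which of a pair of alternative exons is spliced in. The upstream exon (chr9:59675029-59675195) gives M1 and the downstream exon (chr9:59675568-59675734) gives M2. Both are the ninth exon of their transcript and 167 bases long, and both are shown because the isoform share rests partly on reads that tell them apart. Capitals mark the 64 positions at which they differ. The other 103 positions, or 61.7%, are identical.

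Upstream exon, Pkm-202: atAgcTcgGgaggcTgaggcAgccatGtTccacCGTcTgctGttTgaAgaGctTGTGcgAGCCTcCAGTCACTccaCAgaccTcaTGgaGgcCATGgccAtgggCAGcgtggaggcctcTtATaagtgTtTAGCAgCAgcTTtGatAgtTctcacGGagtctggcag
Downstream exon, Pkm-201: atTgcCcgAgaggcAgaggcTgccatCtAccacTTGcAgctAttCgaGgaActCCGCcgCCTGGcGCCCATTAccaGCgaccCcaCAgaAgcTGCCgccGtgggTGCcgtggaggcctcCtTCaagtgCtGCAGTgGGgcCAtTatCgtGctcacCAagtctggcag

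The transcript with the downstream exon predominated. Pkm-201 had 74.3 TPM in replicate 1 and 43.4 in replicate 2, and Pkm-202, with the upstream exon, 4.60 and 8.40. By counts these were 2254 and 2238 against 115 and 358. Pkm-201 held 95.2% of their joint counts in replicate 1 (95% Wilson interval 94.2 to 96.0) and 86.2% in replicate 2 (84.8 to 87.5). The intervals did not overlap, but they treat estimated counts as counted reads. They leave out the error of assigning reads from shared sequence, so a difference beyond error was not tested. By alignment-free counts the shares were 94.6% in replicate 1 and 87.6% in replicate 2. Mean shares of TPM were 89.0% ± 7.35 in the aligned table and 89.4% ± 5.74 in the alignment-free table. The transcripts also differ at their 5′ and 3′ ends, so the split does not rest on the alternative exons alone. A further 8 Pkm transcripts hold neither exon, and 496 and 580 counts went to Pkm-205, a retained-intron transcript that ends upstream of both.

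Lactate dehydrogenase was represented by Ldha, the subunit that favours lactate formation. Ldha (chromosome 7, 46841475 to 46855627, mm10) had 37.8 TPM in replicate 1 and 25.3 in replicate 2, and held 97.9% ± 0.19 of the Ldha and Ldhb total. Slc16a3, which encodes the lactate exporter MCT4, had 14.8 and 10.5 TPM. Hif1a itself had 16.2 and 15.1 TPM. Pdha1, the catalytic subunit of pyruvate dehydrogenase, had 10.9 TPM in replicate 1 and 5.34 in replicate 2. Pdk1, the kinase that inactivates it, had 6.02 and 3.98. Pdha1 was higher than Pdk1 within each library, though the libraries' ranges overlapped.

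All 6 pentose phosphate genes were detected, with a median of 4.01 ± 0.22 on the log2(TPM + 1) scale. In the oxidative branch, Pgd (chromosome 4, 149149991 to 149166771, mm10), which makes NADPH and ribulose 5-phosphate, led with 61.8 and 39.7 TPM. G6pdx, the gene of the first and rate-limiting dehydrogenase, had 17.1 and 12.5 TPM, and Pgls, the lactonase between them, 9.87 and 8.46. The lower Pgd value lay above both values of the other 5 genes. In the non-oxidative branch Tkt (transketolase) had 19.9 and 15.0 TPM and Taldo1 (transaldolase) 17.0 and 14.6. Rpia, the ribose 5-phosphate isomerase, was the lowest with 3.09 and 1.20 TPM on 73 and 49 counts. The leading Tkt transcript was Tkt-209, annotated as a processed transcript with no reading frame, which held 34.6% and 46.9% of its counts.

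All 9 TCA cycle and isocitrate dehydrogenase genes were detected, with a median of 4.09 ± 0.41. The highest was Sdha (chromosome 13, 74322254 to 74350280, mm10), the flavoprotein of succinate dehydrogenase, at 54.9 and 37.9 TPM. Its iron-sulfur partner Sdhb had 15.1 and 12.9, and the ranges of these subunits of the same complex did not overlap. Ogdh, the first subunit of oxoglutarate dehydrogenase, had 34.0 and 21.6 TPM, and Cs, citrate synthase, 19.8 and 12.8. Mdh2 (mitochondrial malate dehydrogenase) had 10.6 and 7.35, Fh1 (fumarase) 5.34 and 4.53, and Idh3a (a subunit of the NAD-dependent isocitrate dehydrogenase) 4.60 and 2.49. The genes of the NADP-dependent enzymes of cytosol and mitochondria had similar TPM over all their transcripts. Idh1 had 25.9 and 14.1 TPM and Idh2 22.8 and 15.9, so Idh1 held 53.2% of the pair in replicate 1 and 47.0% in replicate 2. Coding transcripts held all of the Idh1 TPM but 53.8% ± 0.86 of the Idh2 TPM, and retained-intron transcripts 43.9% ± 4.11 of the latter. The balance in coding TPM was not tested.

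Set side by side, the 15 glycolytic genes from hexokinase to pyruvate kinase had a median of 4.32 ± 0.26 on the log2(TPM + 1) scale. Their median exceeded that of the TCA cycle genes by 0.13 in replicate 1 and 0.34 in replicate 2, and that of the pentose phosphate genes by 0.31 ± 0.035. The difference from the TCA cycle genes varied between the libraries by about its own size, and genes are not replicates, so these are descriptions of the levels.

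Because the RNA was nuclear, the annotated type of the transcripts was examined for every gene. Retained-intron transcripts held 14.2% ± 0.33 of the members' counts, against 15.6% ± 0.68 over all protein-coding genes. NMD transcripts held 7.81% ± 0.49, against 2.43% ± 0.018. Of the 2027 and 2675 NMD counts of all members, Hk3 held 1943 and 2613. Without Hk3 and Pfkp, a pair chosen after the values were seen, the NMD share was 0.321% ± 0.107 and the retained-intron share 13.2% ± 0.11. In the alignment-free table the NMD share was 7.10% ± 0.13 for all members, 1.75% ± 0.010 without this pair and 3.14% ± 0.046 over all protein-coding genes. Of the 39 genes 31 have an annotated retained-intron transcript, and the median share in them was 10.2% ± 1.73, against 17.0% ± 0.38 over 6881 such protein-coding genes with at least 10 counts. In the alignment-free table these medians were 15.8% ± 0.29 and 21.8% ± 1.01. At least 50% of the counts were of this type in 4 members (12.9%, against 14.9% of all such genes), and under 5% in 11 (35.5%, against 22.4%).

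**Figure D3:**
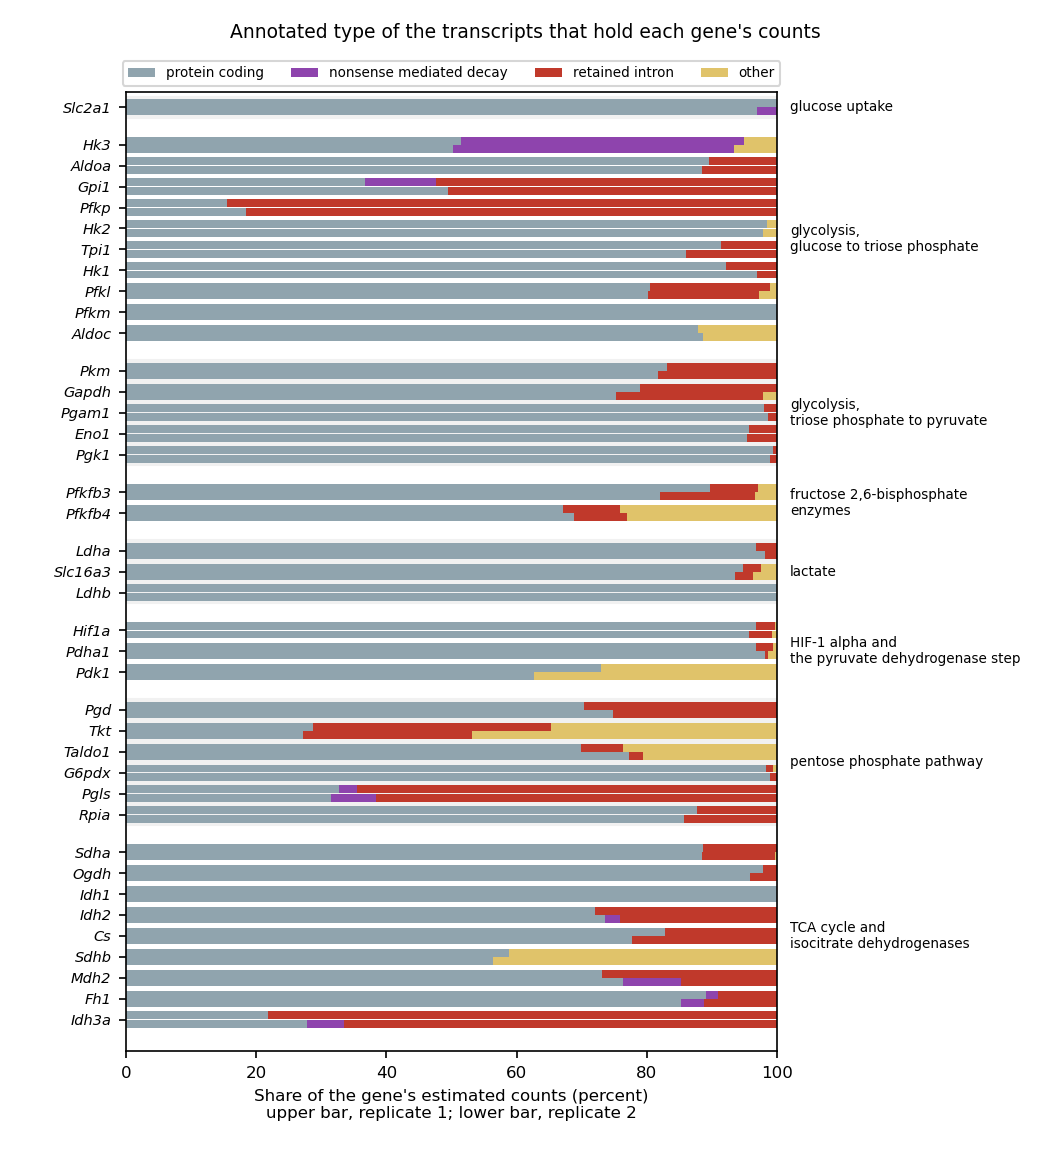
Percent of each gene's estimated counts assigned to protein-coding, NMD, retained-intron and other transcripts in the aligned transcript table; the upper bar is replicate 1 and the lower bar replicate 2. Pfkp, Idh3a, Pgls and Gpi1 are mostly retained intron in both libraries, and Hk3 has the largest NMD share.

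Pfkp was the highest at 83.0% ± 2.08. Idh3a followed at 72.3% ± 8.34 on 106 and 97 counts, Pgls at 63.1% ± 2.06 and Gpi1 at 51.4% ± 1.28. A second tier held between 20% and 32%: Tkt had 31.2% ± 7.43, Pgd 27.4% ± 3.12, Idh2 26.0% ± 2.65, Gapdh 21.8% ± 1.06 and Mdh2 20.8% ± 8.64. At the other end Aldoc, on 28 and 45 counts, had 0 in both libraries, Pgk1 0.869% ± 0.360, G6pdx 1.10% ± 0.073, Pdha1 1.47% ± 1.53, Pgam1 1.69% ± 0.50 and Ldha 2.56% ± 0.98. By pathway, with counts pooled over genes, the share was 24.0% ± 3.11 for pentose phosphate genes and 10.8% ± 0.58 for the TCA cycle. It was 17.0% ± 1.40 and 13.8% ± 0.58 for the upper and lower steps of glycolysis, and 2.60% ± 0.58 for the lactate genes. Pfkp alone held 1092 and 1291 of the 1663 and 1948 retained-intron counts of the upper steps. In the lower steps Pkm held 500 and 591 of 709 and 843. The pooled shares thus follow single genes, and the order of the pathways without them was not tested. The shares of genes and pathways also depended on the table. Of the 31 genes, 12 had in the alignment-free table a share over 1.5 times higher and 1, Fh1, a share over 1.5 times lower (5.26% ± 0.75, against 10.1% ± 1.60). The widest change was that of Rpia, from 13.3% ± 1.38 to 82.0% ± 3.59 in the alignment-free table, which gave Rpia 5.36 and 6.35 times as many counts. Taldo1 went from 4.38% ± 3.09 to 23.8% ± 4.82, Ldha to 9.19% ± 1.19, Pgk1 to 4.52% ± 0.97 and the lactate genes to 7.06% ± 0.95. The leading transcript was the same in both transcript tables for 28 of 39 genes.

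The libraries were compared with each other as a measure of spread. After the median of all 14584 countable genes was subtracted, no member was over 2-fold higher or lower in replicate 2, where 1.22% of all genes were higher and 0.487% lower. The median log2 ratio, on TPM + 1, was -0.43 over the members and -0.42 over all countable genes. Relative to that median 18 members were above and 21 below. The highest was Hk2 at 0.56, then Pfkm at 0.46 and Pfkfb3 at 0.45, and the lowest were Tpi1 at -0.53, Pdha1 at -0.49, Rpia at -0.47 and Idh1 at -0.41. Of the 10 upper glycolysis genes 8 were above the median, and 4 of the 5 lower ones and 7 of the 9 TCA cycle genes were below it. With a single library on each side these have no replicate check.

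**Figure D4:**
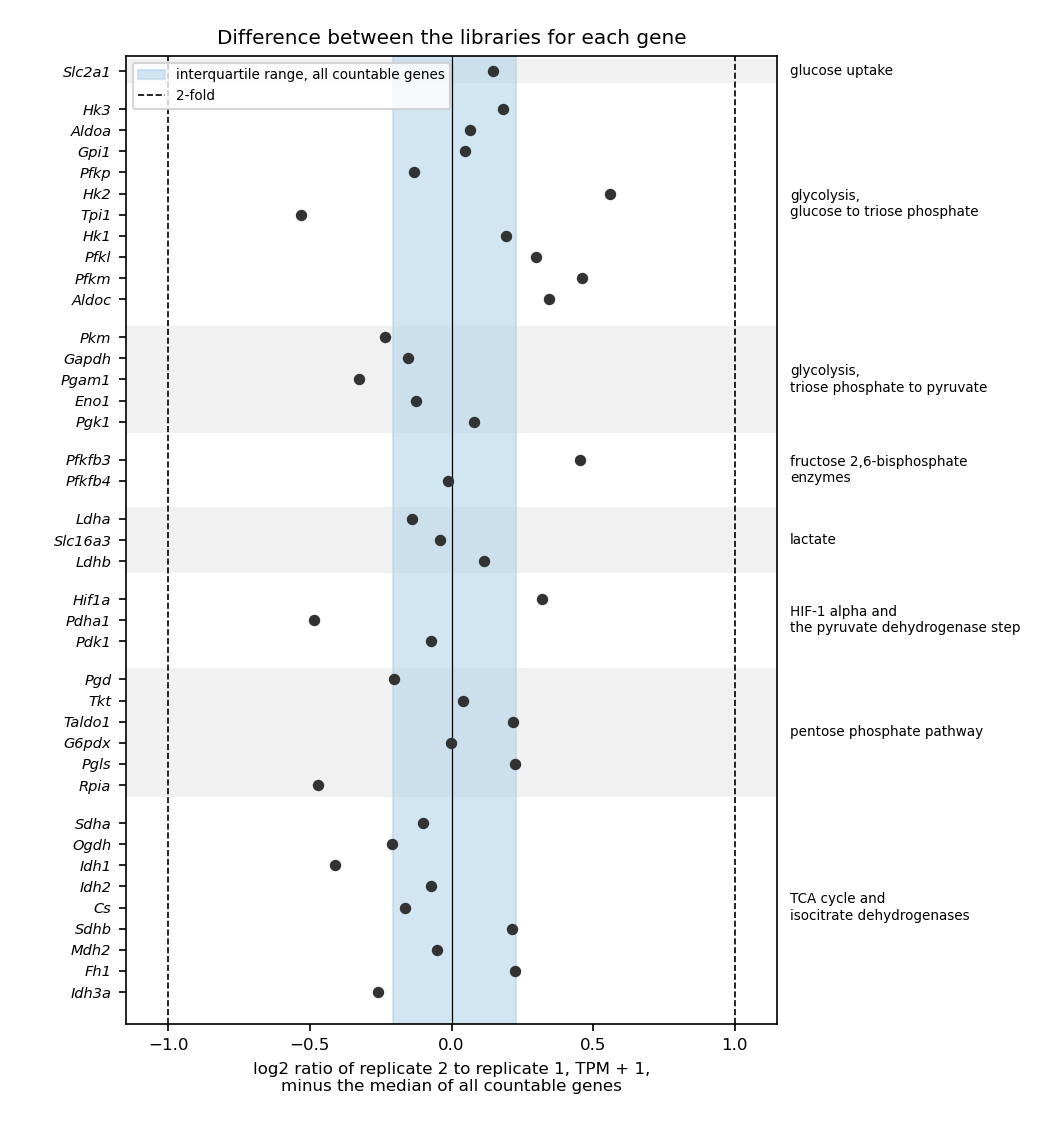
Log2 ratio of replicate 2 to replicate 1 of each gene (TPM + 1) minus the median over all countable genes; the blue band is the interquartile range of all countable genes and dashed lines mark 2-fold. All 39 points lie inside the dashed lines, from Tpi1 at -0.53 to Hk2 at 0.56.

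Other genes of the same pathways, on 7 lists with 72 names, were detected in 47 cases and lay under 1 TPM in both libraries in 23. Of the 15 other TCA cycle and citrate genes 14 were detected, and of the 11 genes of pyruvate entry and pyruvate dehydrogenase 10. The 17 other glycolytic genes gave 8 and the 7 gluconeogenic genes 2. The highest were Dlst (67.9 ± 19.7 TPM), a subunit of oxoglutarate dehydrogenase, Mpc1 (42.2 ± 10.5), a pyruvate carrier, and Arnt (33.1 ± 12.4), the partner of HIF-1 alpha. The hexose transporter Slc2a6 came next, with 19.7 TPM in replicate 1 and 45.7 in replicate 2, on 640 and 2513 counts. It was the only 1 of 51 countable genes of these lists beyond 2-fold, at 1.60 above the median log2 ratio. In the alignment-free table its value was 0.71, inside 2-fold, and 1.36 after rescaling of that table. Bsg (28.2 ± 4.05), Idh3b (27.9 ± 5.96), Acly (21.6 ± 3.33), Slc16a7 (21.3 ± 3.56) and Pdhb (19.6 ± 10.1) were also among the 10 highest. In oxoglutarate dehydrogenase Dlst was thus higher than Ogdh in each library. Fbp1, of gluconeogenesis, had 0 counts in both libraries. Hif1a and Arnt were detected, while Epas1, which encodes HIF-2 alpha, had 0.870 and 0.280 TPM.

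Promoters were searched for sequence that the choice of genes did not use. RefSeq start-site windows (GRCm38.p6, 250 bases before to 50 after the start) were found for 38 of 39 members, 58 windows in all. The core of the HIF site, ACGTG or GCGTG on either strand, was present in 84.5% of them. It was present in 62.6% of 10051 windows of detected protein-coding genes and in 43.8% of all 32851 windows. The members' windows had a median GC content of 60.8% and a median of 20.5 CpG dinucleotides, and those of the detected genes 60.7% and 21. ACGTG alone was in 44.8% of the members' windows against 26.2%, and the E-box CACGTG, which contains it, in 12.1% against 10.4%. The core GAGGAA of the macrophage factor PU.1 was in 20.7% against 27.0%. A match describes letters and is not a binding site, and no binding was measured here. Windows of the same gene overlap and are not independent.

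The 250 bases before the RefSeq start are shown for Ldha, the gene whose promoter is a textbook HIF target, and for Hk3, the highest member. Capitals mark HIF core matches on either strand, 5 in Ldha and 1 in Hk3. Each CACGTG in Ldha was counted once on each strand, so the matches there outnumber the marked stretches. The Ldha stretch (chr7:46845554-46845803, plus strand, GRCm38.p6) has a GC content of 67.2% and the Hk3 stretch (chr13:55021386-55021635, minus strand, GRCm38.p6) 47.2%. The GENCODE start of Hk3-208 lies 151 bases downstream of the RefSeq start of Hk3. GAGGAA was found once in Hk3, on the opposite strand, and not in Ldha.

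Ldha: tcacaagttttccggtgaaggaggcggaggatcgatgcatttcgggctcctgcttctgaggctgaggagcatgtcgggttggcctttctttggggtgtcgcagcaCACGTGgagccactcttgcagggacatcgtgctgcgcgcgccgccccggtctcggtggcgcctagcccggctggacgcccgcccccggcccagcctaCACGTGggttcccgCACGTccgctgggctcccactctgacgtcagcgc
Hk3: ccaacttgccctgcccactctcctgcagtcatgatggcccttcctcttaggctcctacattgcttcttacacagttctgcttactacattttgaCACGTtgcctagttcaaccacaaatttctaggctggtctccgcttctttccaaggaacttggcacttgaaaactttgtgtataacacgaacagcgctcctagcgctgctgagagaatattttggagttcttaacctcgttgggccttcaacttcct

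By the posterior SD, the assignment of aligned reads to these genes was mostly unambiguous. The alignment-free table gave the members a median of 1.47 times as many counts (1.17 to 5.76), against 1.59 over all countable genes. The posterior SD of the count, as the authors' quantifier gave it, was 0 in both libraries for 26 members and at most 5% of the count for all 39. Exons of other genes overlapped those of 15 members, over 10% of the exonic bases in 6 and over 50% in 0. The largest overlap on the same strand was that of Pgls with Fam129c, at 20.6%. Strand use in the counting was not given in the sources used here. In 7 of the 78 values TPM lay outside the interval that the authors' quantifier gave, as for Hk1 in replicate 1 (9.87 TPM, interval 11.5 to 18.4). Across the 39 genes the log2 levels of the libraries correlated with r = 0.98 and those of the aligned and alignment-free tables, after rescaling, with r = 0.97. These are across genes, share library and gene length, and carry no test.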

How the data were processed

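From transcriptome alignments (mm10, GENCODE M21, per the deposited readme) the authors made the expected counts and TPM of a gene table and of an aligned transcript table. Percent of gene abundance per transcript is a deposited column, as are the posterior SD of the count and the TPM interval bounds, a signal of the authors' quantifier. Estimated counts and TPM of the alignment-free table were made by the authors from reads and an index. Quantifier names were not given in the sources used here, and replicates were not pooled.

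The members, the other gene lists and the tests were chosen with earlier results of these data known. Named are all 39 members, the leading transcript of each by mean TPM, the coding transcripts of Pkm that hold either alternative exon, and the 10 highest of the other pathway genes, of which 1 is not reported here. Others named were chosen after their values were seen. Levels were TPM as deposited, summarised as log2(TPM + 1), and SDs are over 2 libraries. Ratios used TPM + 1 and genes with at least 10 counts in both. Copies were found with blastn 2.17.0. For edgeR 4.0.16 (TMM) and DESeq2 1.42.0 size factors, counts were rounded. The fold count was tested on simulated counts with counting error as the only spread. Genes were changed 4-fold only where the mean was over 200 counts, and 200 of 200 were recovered among 55536. Genes with fewer counts, as several members have, changes near the 2-fold limit and other spread between libraries were not covered. Intervals cover counting error only. Alternatives were other minimums, pseudocount, scaling, tables and single libraries, and a rescaled alignment-free table (genes of at least 200 bases, no mitochondrial genes) chosen after seeing the data.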

Additional observations from a re-analysis of the deposited data

How the results depend on the processing

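No paired analysis was possible because the libraries form 1 group. The number of members detected was 31 to 39 under 6 alternatives. The median level of 4.04 was 4.54 with rescaled TPM, 5.13 with CPM and 2.78 in the alignment-free table, where genes under 200 bases took 28.3% and 74.9% of TPM; with that table rescaled it was 3.92. Single libraries gave 3.91 and 4.17. The excess of glycolysis over the TCA cycle, 0.24, was 0.61 with CPM, 0.43 and 0.47 in the alignment-free table before and after rescaling, 0.39 as a mean over members, and 0.13 to 0.34 in single libraries; it was positive in all 9 alternatives. By counts, the shares were 76.7% for Hk3, 76.1% for Pfkp, 96.0% for Aldoa, 98.5% for Ldha and 64.0% for Idh1, and from alignment-free TPM Aldoa held 96.4%, Ldha 97.5% and Idh1 45.1%. Single libraries gave 82.9% to 85.2% for Hk3, 65.8% to 72.9% for Pfkp and 71.2% to 77.8% for Pfkfb3. Of all 4 Pfkfb genes Pfkfb3 held 56.3%. The Pfkp shares are over all transcripts, while in coding counts of the aligned transcript table Pfkl was higher than Pfkp in each library. In coding counts of the alignment-free table Pfkp was higher by a small margin in each library. The retained-intron share of 14.2% was 15.4% in the alignment-free table, 18.3% by TPM, 10.2% as a median over members (15.8% in the alignment-free table, a median added after seeing the data), 13.2% without Hk3 and Pfkp (chosen after seeing the data) and 14.0% to 14.5% in single libraries. The median ratio minus that of all genes, -0.012, was -0.18 with no minimum count and -0.41 in the alignment-free table. With that table rescaled it was -0.039. No member was beyond 2-fold under any of 7 alternatives. Depth limits Ldhb, Aldoc, Rpia, Pfkm and Idh3a, all under 140 counts per library.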
